A study of Mus musculus with 6 samples.

Results

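The protein genes of the cytosolic and of the mitochondrial ribosome were followed in macrophages grown from mouse bone marrow, in 6 RNA sequencing libraries. Members were taken by symbol. The cytosolic set held Rpl or Rps with a number and at most 1 letter, with Rpsa, Rplp0, Rplp1 and Rplp2, and the mitochondrial set held symbols that start with Mrpl or Mrps. Of 159 such rows, 82 were cytosolic and 77 mitochondrial. A gene counted as measured when it reached 1 FPKM (fragments counted for a gene, relative to its transcript length and to the library's depth) in any of the 6 libraries, which 79 cytosolic and all 77 mitochondrial genes did, so that 156 of 11549 measured genes were members. The cytosolic rows left out were Rpl3l, Rpl10l and Rpl32l, whose highest values were 0.31, 0.13 and 0.13 FPKM. The members nearest above the minimum were Rpl39l and Mrpl17. Rpl39l had 0.65, 0.48 and 1.23 FPKM in KO and 1.57, 1.34 and 1.37 FPKM in WT at 0, 12 and 24 h. Mrpl17 had 4.64, 3.01 and 4.91 FPKM in KO and 4.18, 3.33 and 3.6 FPKM in WT.

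The macrophages were grown for 5 days with the growth factor M-CSF from marrow of C57BL/6 mice aged 8 weeks. They were knockout (KO) or wild type (WT) for Setd2, the histone methyltransferase that places trimethylation on lysine 36 of histone H3 over transcribed genes. Cells of each genotype were collected without lipopolysaccharide (LPS, a bacterial cell wall component) at 0 h, or after 12 or 24 h with LPS at 100 ng/ml. No library was taken at 12 or 24 h without LPS, so LPS and time in culture cannot be told apart. A response to LPS here means the change from the 0 h library. With 1 library in each of the 6 groups there is no replicate error and no test, and whether a difference exceeds the spread between cultures cannot be known. The Setd2 allele is not described in the labels, nor is it said which libraries come from the same animal or culture.

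The Setd2 gene itself had 9.96, 9.16 and 5.11 FPKM in KO at 0, 12 and 24 h, against 7.83, 8.68 and 7.51 FPKM in WT. A level summed over the gene is blind to the loss of some exons and checks no label, and KO and WT stand here for the libraries that carry those labels. All 9 macrophage markers were measured, with summed levels of 2786 to 4052 FPKM in KO and 2829 to 4916 FPKM in WT. Markers of neutrophils and their precursors summed to 41.8 to 66.3 FPKM in KO, against 81.9 to 89.4 FPKM in WT, and no erythroid marker reached 1 FPKM in any library. Depth, read from the spacing of low FPKM values with an assumed read length of 50, was 21540000 to 22100000 mapped reads in KO and 21510000 to 21990000 in WT. Column totals of FPKM were 459001 to 582083 in KO and 477482 to 557254 in WT.

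The cytosolic ribosome makes nearly all of a cell's protein. Its small subunit reads the mRNA and its large subunit joins the amino acids, and most of its proteins are needed in equal amounts. In mammals the mRNAs of these proteins start with a run of pyrimidines, the terminal oligopyrimidine (TOP) tract, through which the kinase mTOR controls their translation. The mitochondrial ribosome makes a small number of inner-membrane proteins of the respiratory chain from mitochondrial DNA, and its own proteins are all encoded in the nucleus. In macrophages LPS is known to shift both protein synthesis and mitochondrial respiration.

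The sequence around the start site differed between the sets, and it is shown for members whose values are given further on. Each line gives 30 bases before and 15 bases after the RefSeq start of the gene in GRCm38.p6, 5′ to 3′, on the gene's strand, with the unbroken run of C and T that covers or touches the start in capitals. Annotated starts can lie some bases from the true one.
Rps27 (chr3:90213634-90213678, minus strand): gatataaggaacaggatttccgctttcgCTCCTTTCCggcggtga
Rplp2 (chr7:141447621-141447665, plus strand): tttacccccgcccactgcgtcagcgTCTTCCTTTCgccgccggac
Rps9 (chr7:3704011-3704055, plus strand): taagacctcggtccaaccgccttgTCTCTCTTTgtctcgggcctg
Rpl14 (chr9:120571487-120571531, plus strand): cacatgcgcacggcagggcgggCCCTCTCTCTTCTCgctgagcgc
Rps6 (chr4:86857353-86857397, minus strand): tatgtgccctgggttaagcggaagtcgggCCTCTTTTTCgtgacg
Rpl39 (chrX:37085208-37085252, minus strand): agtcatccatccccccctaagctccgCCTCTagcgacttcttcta
Rpl36a (chrX:134585624-134585668, plus strand): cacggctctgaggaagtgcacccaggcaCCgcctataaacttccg
Rpl24 (chr16:55966245-55966289, plus strand): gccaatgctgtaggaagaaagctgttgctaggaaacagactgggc
Mrpl12 (chr11:120484607-120484651, plus strand): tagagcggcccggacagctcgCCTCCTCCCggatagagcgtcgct
Mrpl45 (chr11:97315686-97315730, plus strand): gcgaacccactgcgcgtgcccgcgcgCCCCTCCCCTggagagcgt
Mrpl33 (chr5:31613921-31613965, plus strand): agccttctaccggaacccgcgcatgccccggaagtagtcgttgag
Mrpl52 (chr14:54426879-54426923, plus strand): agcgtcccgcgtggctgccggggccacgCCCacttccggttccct

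A run of at least 8 C or T at the start was present in 15 of the 58 cytosolic members with a promoter window (25.9%), in 4 of 68 mitochondrial members (5.88%) and in 5.56% of 8985 other measured genes. Of the genes printed, Rps27, Rplp2, Rps9, Rpl14, Rps6, Mrpl12 and Mrpl45 carry such a run, and Rpl39, Rpl36a, Rpl24, Mrpl33 and Mrpl52 do not. CTTTCC, searched on the gene strand within 50 bases of the start, was found in 29.3% of cytosolic, 4.41% of mitochondrial and 4.27% of other measured genes, and in 4.67% of all 27025 windows. The related CCTTTCC, which contains CTTTCC, was found in 13.8%, 2.94% and 1.5%, and CTTTTCC in 12.1%, 1.47% and 1.12% of the same groups. These letters are the typical makeup of a TOP tract.

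Other motifs were searched from 250 bases before to 50 after the start. CCGGAAG, the core that ETS family factors bind, was found on either strand in 41.4% of cytosolic and 35.3% of mitochondrial windows, against 19.6% of other measured genes and 9.12% of all windows. It is visible as ccggaag in Mrpl33. GCCATNTT, the core that YY1 binds, was found in 17.2% of cytosolic, 29.4% of mitochondrial and 9.30% of other measured genes on either strand, and in 6.23% of all windows. The GC box GGGCGG was found in 58.6%, 50% and 65%, and in 35.9% of all windows. TATAAA on the gene strand was found in 8.62%, 4.41% and 4.40%, and in 8.88% of all windows. These shares describe letters in a window and not binding.

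The 2 sets also differ as genes. Cytosolic members had a median annotated transcript length of 799 nt and a median gene span of 3329 bases, and mitochondrial members 1226 nt and 7894 bases. The median of all measured genes was 2708 nt, and other protein-coding measured genes spanned 23390 bases. Small nucleolar RNA genes, which guide the modification of ribosomal RNA and are cut from introns, lay inside 29 of 78 cytosolic members found in GENCODE (37.2%), 56 of them in all. Rpl4 held 5, Rpl13a held 4 and Rpsa held 3. None of 77 mitochondrial members held such a gene, and 1.5% of 10368 other measured protein-coding genes did. GENCODE names 293 pseudogenes of cytosolic members, 24 of Rpl31 and 23 of Rps12 among them, and 5 of mitochondrial members. Reads from near-identical copies could have been assigned to either, so the levels of the 60 measured cytosolic members with a named pseudogene carry that uncertainty.

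The cytosolic set was among the most abundant in these cells. Its median level per length was 499, 313 and 410.01 FPKM in KO at 0, 12 and 24 h, against 886, 356 and 426 FPKM in WT. The mitochondrial set had medians of 23, 15.45 and 22.15 FPKM in KO, against 27.8, 17.6 and 21.1 FPKM in WT. All measured genes had medians of 7.20 to 10.8 FPKM in KO and 8.43 to 10.2 FPKM in WT. In each genotype the 0 h library had the highest cytosolic median and the 12 h library the lowest.

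**Figure D1:**
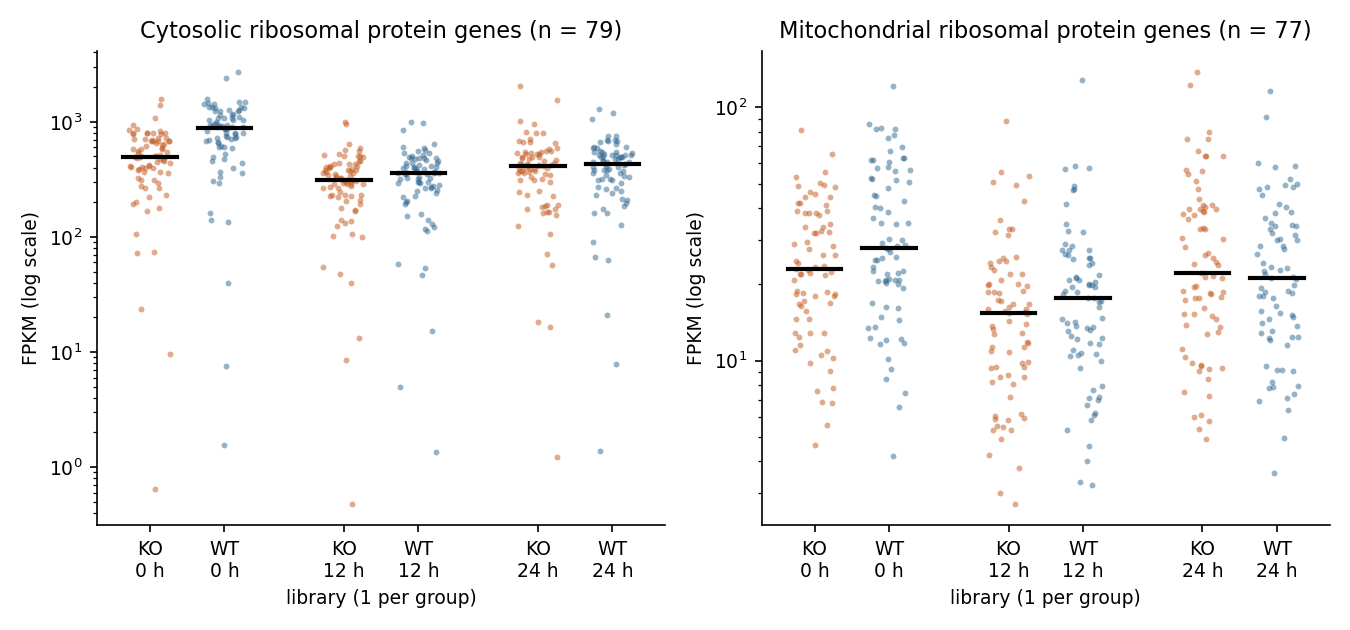
Level of every measured cytosolic (left) and mitochondrial (right) ribosomal protein gene in each library, in FPKM on a log axis, with 1 point per gene and a bar at the median. The cytosolic points of the WT 0 h library lie highest, around a median of 886 FPKM, and those of the KO 0 h library around 499 FPKM.

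Within the cytosolic set the most abundant members were Rpl41, Rplp1 and Rps9. Rpl41, the shortest ribosomal protein and a bridge between the subunits, had 1410.2, 948 and 2047 FPKM in KO at 0, 12 and 24 h, against 2420.25, 984 and 1293 FPKM in WT. Rplp1, part of the acidic stalk that recruits elongation factors, had 1562, 995 and 1549 FPKM in KO, against 2690.05, 1004 and 1184 FPKM in WT. For Rpl41 the highest KO value was at 24 h and the highest WT value at 0 h. Rps15a had only 13.2 to 23.6 FPKM in KO and 15.1 to 39.75 FPKM in WT, with an annotated length of 5179 nt, the longest of the set. Since FPKM divides by that length, its level depends on which transcript was taken as the gene's.

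Taken as a sum, the cytosolic members took 8.91% of the FPKM total in KO and 13.1% in WT at 0 h. At 12 h the shares were 5.56% in KO and 5.86% in WT, and at 24 h 5.93% in KO and 6.09% in WT. The mitochondrial members took 0.447% in KO and 0.518% in WT at 0 h, 0.303% in KO and 0.337% in WT at 12 h, and 0.405% in KO and 0.362% in WT at 24 h. The 10 highest genes of each library took 11.9% to 22.9% of its total in KO and 13.3% to 25.4% in WT. Without the 10 genes of highest mean over all libraries, the cytosolic share was 9.96% in KO and 14.7% in WT at 0 h. The KO share stayed the lower of the pair at 12 and 24 h. These are bulk samples, in which a lower share of cells with much ribosomal mRNA and less such mRNA per cell cannot be told apart.

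**Figure D2:**
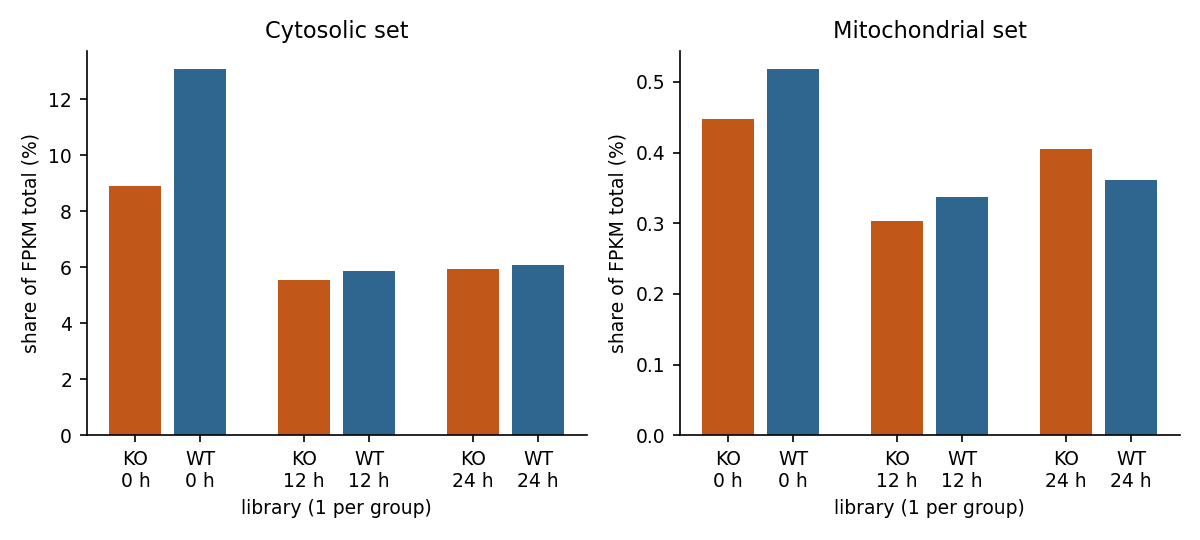
Share of each library's FPKM total (%, bars from 0, 1 library per bar) taken by the cytosolic (left) and mitochondrial (right) ribosomal protein genes. The cytosolic bar is 8.91% in KO and 13.1% in WT at 0 h and below 6.1% in the other 4 libraries, and the mitochondrial bar is higher in KO than in WT at 24 h only.

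In unstimulated cells almost every ribosomal protein gene of the cytosolic set was lower in KO than in WT. The difference of log2(FPKM + 1), KO minus WT, was below 0 for 78 of 79 cytosolic members, with a median of -0.78. For 68 of 77 mitochondrial members it was below 0, with a median of -0.34, against a median of 0.022 over all measured genes. The shift was broad and even: the middle 50% of cytosolic members lay between -0.87 and -0.66, and the large and small subunits had medians of -0.76 and -0.80. The mitochondrial large and small subunits had medians of -0.34 each. The order of the medians held under every scaling tried, with cytosolic values from -0.81 to -0.57.

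Few members passed the size that counts as a call here, a difference of at least 1 (2-fold). Of the cytosolic members 4 were called lower and none higher, and of the mitochondrial members 1 was called lower. This compares with 1.26% of all measured genes called lower, 2.96% called higher and 4.23% called in either direction. At a 1.5-fold rule 73 of 79 cytosolic and 15 of 77 mitochondrial members were lower, against 7.79% of all measured genes. At 0 h the FPKM total was 461013 in KO and 534080 in WT, and markers of neutrophils and their precursors summed to 55.0 FPKM in KO and 89.4 FPKM in WT. Their part in the difference was not tested.

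The cytosolic members called lower were small proteins of short mRNAs. Rpl36a, a zinc-binding protein of the large subunit encoded on the X chromosome, had 267 FPKM in KO and 598 FPKM in WT at 0 h, a difference of -1.16. Rps27, a zinc finger protein of the small subunit, had 381 FPKM in KO and 797 FPKM in WT, a difference of -1.06. Rpl37a and Rpl39, the last of which lines the tunnel through which the new protein leaves, had 445 and 325 FPKM in KO, against 926 and 669 FPKM in WT, with differences of -1.05 and -1.04. Counting alone gives these 4 differences standard errors of 0.025 to 0.035 at the estimated depth, which leave out the spread between cultures. Their transcripts measure 483, 445.5, 558 and 612 nt. In GRCm38 the genes lie at chrX:134585654-134588062, chr3:90212667-90213648, chr1:72711260-72713813 and chrX:37082518-37085222.

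Other well-studied members were lower in KO as well. Rplp0, the base of the stalk and a common reference gene, had 799 FPKM in KO and 1239 FPKM in WT at 0 h, a difference of -0.63. Rps6, the substrate of S6 kinase, had 407 FPKM in KO and 619.78 FPKM in WT, a difference of -0.60. Rps4x had 576 FPKM in KO and 1036 FPKM in WT, a difference of -0.85. The least lowered were Rpl29, Rpl7a and Rpl4, with differences of -0.45, -0.46 and -0.50. Rps4l, a copy related to Rps4x, was the only cytosolic member higher in KO, with 9.52 FPKM in KO and 7.50 FPKM in WT, a difference of 0.31 with a counting error of 0.16.

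Among mitochondrial members, Mrpl33 (chr5:31613951-31622644) was called lower, with 37.4 FPKM in KO and 77.4 FPKM in WT, a difference of -1.03. Mrpl52 had 45.4 FPKM in KO and 85.8 FPKM in WT, and Mrpl23 had 48.45 FPKM in KO and 83.0 FPKM in WT, with differences of -0.91 and -0.76. The other end of the range was held by Mrps2, with 18.3 FPKM in KO and 13.6 FPKM in WT, and by Mrps5, with 24.8 FPKM in KO and 20.6 FPKM in WT. Their differences were 0.40 and 0.25. The mitochondrial members thus spread over both signs, from -1.03 to 0.40, where the cytosolic members other than Rps4l lay between -1.16 and -0.45.

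**Figure D3:**
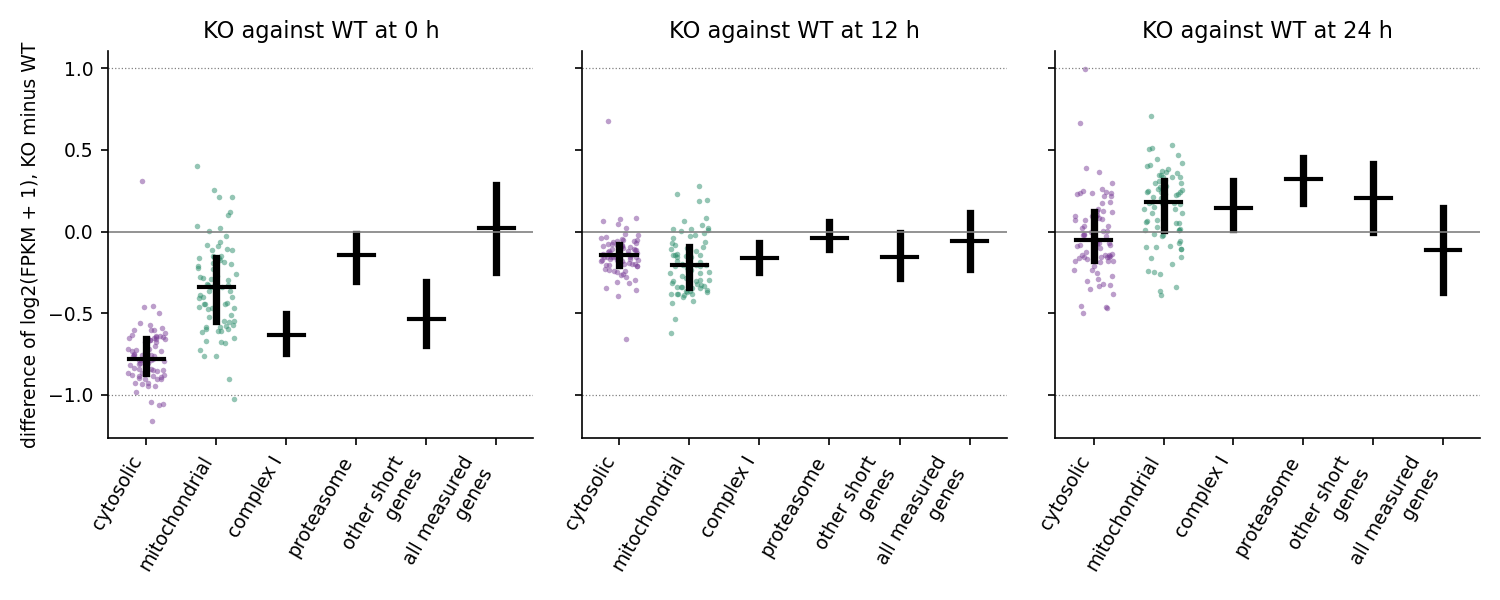
Difference of log2(FPKM + 1), KO minus WT, at 0, 12 and 24 h for each cytosolic and mitochondrial member (points), with the median (horizontal bar) and middle 50% (vertical bar) of these sets, of respiratory complex I and proteasome subunits, of 524 other genes with transcripts up to 1024 nt and of all measured genes. Dotted lines mark 2-fold; at 0 h the cytosolic points center on -0.78, at 12 h on -0.14 and at 24 h on -0.055, a median that turns to 0.092 and 0.10 when the columns are rescaled.

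Transcript length moved with this difference across all genes. Among 5436 other genes that averaged 10 FPKM or more, the KO minus WT difference at 0 h had a Spearman rho of 0.59 with length. Their median was -0.68 for transcripts up to 512 nt, -0.51 from 513 to 1024 nt, -0.21 from 1025 to 2048 nt, 0.074 from 2049 to 4096 nt, and 0.67 over 8192 nt. The 524 short genes up to 1024 nt, members left out, had a median of -0.53. Subunits of respiratory complex I, which are also short at a median of 718 nt, had a median of -0.64, and subunits of the proteasome, at 1476 nt, had -0.15. Genes share libraries and are not independent, so these are descriptions.

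The cytosolic set lay below the curve of other genes, and the mitochondrial set close to it. Of 79 cytosolic members 76 were below the median of other genes in their own length bin at 0 h, and of 77 mitochondrial members 51 were. With a smooth trend over length removed from each library, the cytosolic median was -0.24 and the mitochondrial -0.048. With the trend fitted without the members the values were -0.26 and -0.048, and with the median of all measured genes in the length bin subtracted they were -0.41 and -0.14. In the bin up to 512 nt that median was 0 over 380 genes with a median length of 93.5 nt, so this subtraction left members of that length as they were. With the median of other genes that averaged 10 FPKM or more in its place, the sets had -0.30 and -0.14. Members make up 81 of the 605 genes up to 1024 nt that the smooth trend was fitted on (13.4%). The first bin subtraction kept the calls of Rps27, Rpl36a and Mrpl33, all under 512 nt and unchanged by it. Median-of-ratios and trimmed-mean scaling kept all 5, and scaling each library to the same FPKM total kept 0. The smooth trends and the second bin subtraction kept none: Rpl36a was at -0.44 and Mrpl33 at -0.32 with the trend removed, and at -0.48 and -0.35 with the second subtraction. The members past 2-fold with the trend removed were Rps20, Mrps25 and Rps15a, at -1.13, -1.11 and -1.04, all with long annotated transcripts.

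Within the sets, which span a narrower range of lengths, rho with length was 0.39 over the 79 cytosolic and 0.43 over the 77 mitochondrial members. With the smooth trend removed it was -0.62 and -0.51. The trend thus took away more than the sets' own link with length, and trend-removed values of members still depend on their length. Rps20, annotated at 3706 nt, had 71.85 FPKM in KO and 139 FPKM in WT at 0 h, a difference of -0.95. Rps15a, at 5179 nt, had 23.55 FPKM in KO and 39.75 FPKM in WT, a difference of -0.73. Both lay with the rest of the cytosolic set, not with other genes of 2049 to 4096 or 4097 to 8192 nt, whose medians were 0.074 and 0.32. Whether shorter isoforms carry most of their reads was not tested.

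**Figure D4:**
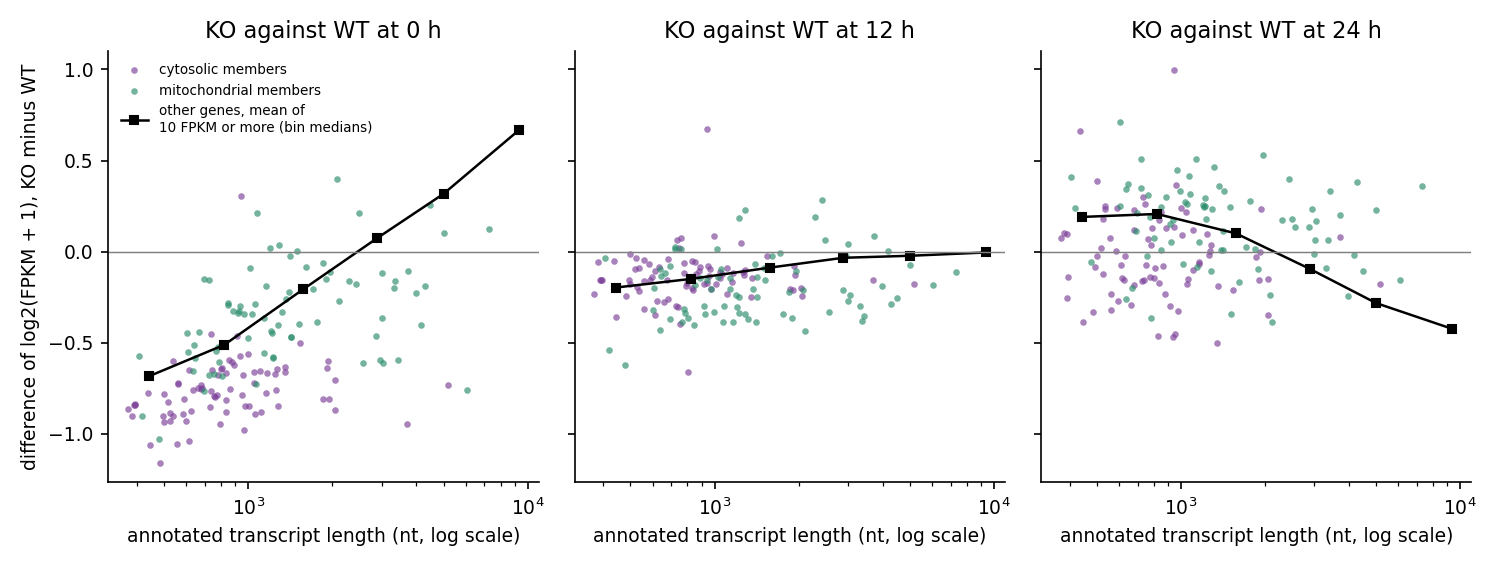
Difference of log2(FPKM + 1), KO minus WT, against annotated transcript length (nt, log axis) for cytosolic and mitochondrial members, with black squares at the median of other genes in each of 6 length bins. The curve of other genes climbs from -0.68 to 0.67 at 0 h, is nearly flat at 12 h, and runs from 0.19 down to -0.42 at 24 h.

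At 12 h with LPS the genotypes were close. The cytosolic median was -0.14 and the mitochondrial -0.21, against -0.060 over all measured genes, with 73 of 79 and 65 of 77 members below 0. No member was called, while 2.04% of all measured genes were. Rps9, which lies near the path of the mRNA, had 644 FPKM in KO and 849 FPKM in WT, a difference of -0.40. Rpl39l had the lowest cytosolic value, -0.66, but rests on few reads, with a counting error of 0.60. Mrpl33 was again the lowest mitochondrial member, with 15.99 FPKM in KO and 25.1 FPKM in WT and a difference of -0.62. Mrpl45, which faces the inner membrane at the exit tunnel, had 24.7 FPKM in KO and 20.1 FPKM in WT, and was the highest at 0.28. At this time the median of other genes varied little with length, from -0.20 in the shortest bin to -0.0048 in the longest.

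At 24 h with LPS the cytosolic set split. The median difference was -0.055 as deposited, turning to 0.092 under median-of-ratios and 0.10 under trimmed-mean scaling, with 34 members above 0 and 45 below. No member was called, while 4.15% of all measured genes were. The lowest were Rpl3, Rps23, Rpl10a and Rps7. Rpl3, which sits by the site of peptide bond formation, had 188 FPKM in KO and 267 FPKM in WT, a difference of -0.50. Rpl10a, of the stalk over which spent tRNA leaves, had 155 FPKM in KO and 214 FPKM in WT, a difference of -0.46. On the other side, Rpl41 had 2047 FPKM in KO and 1293 FPKM in WT, a difference of 0.66, and Rplp1 and Rplp2 of the acidic stalk had differences of 0.39 and 0.37. Rps4l had 16.5 FPKM in KO and 7.80 FPKM in WT, and its difference of 0.995 stood just under the size of a call.

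The mitochondrial set was higher in KO at 24 h. Of 77 members 58 had a difference above 0, with a median of 0.18, against -0.12 over all measured genes and 0.21 over other short genes. The median was 0.32 or 0.33 under the rescalings, and 0.067 with the length trend removed. Mrpl54 had 64.0 FPKM in KO and 38.7 FPKM in WT, a difference of 0.71. Mrps7 and Mrps12, the last of them at the decoding centre, had differences of 0.53 and 0.51. Mrps12 had 43.4 FPKM in KO and 30.15 FPKM in WT. The lowest were Mrpl50, Mrps28, Mrps31 and Mrps36, between -0.39 and -0.26. Mrps36 has since been placed in the 2-oxoglutarate dehydrogenase complex and not in the ribosome.

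The length curve had turned by 24 h. Other genes had a median of 0.19 up to 512 nt and of -0.42 over 8192 nt, and a rho of -0.41 with length. Over the cytosolic members rho was -0.11 and over the mitochondrial -0.20, and with the length trend removed 0.083 and 0.33. With the trend removed, the cytosolic median was -0.22, with 62 of 79 members below other genes of their length bin, and 26 of 77 mitochondrial members were below theirs. GC content gave rho values of 0.40 over cytosolic members, 0.38 over mitochondrial members and 0.20 over other genes at 24 h.

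Some members lay on the same side of their set median at all 3 times. Taken as the distance from the median of their own set, Rps2, which lines the entry of the mRNA channel, was above by 0.22, 0.23 and 0.29 at 0, 12 and 24 h, and Rpl29 by 0.32, 0.21 and 0.35. Rps27 was below by -0.28, -0.21 and -0.33. Among mitochondrial members Mrpl33 was below at each time, by -0.69, -0.41 and -0.24, and Mrps36 by -0.31, -0.22 and -0.44. Mrpl22, Mrpl45 and Mrps7 were above at each time. A distance of the same sign at 3 times was seen for 31 of 79 cytosolic and 25 of 77 mitochondrial members. This count asks for no size: Rpl13a is in it with 0.057, 0.00012 and 0.27. Each set is split at its own median, so some members share a sign at 3 times without any link between times. That share was not worked out, and the members named are extremes of the same ranking.

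The WT response at 12 h with LPS covered the whole cytosolic set. All 79 members were lower at 12 h than at 0 h, with a median of -1.34, and 73 were called lower, against 17.4% of all measured genes. The median of all measured genes was -0.28 and that of other short genes -0.80. Median-of-ratios and trimmed-mean scaling moved the median of genes that average 5 FPKM or more up by 0.29 in the WT responses and by 0.38 to 0.46 in the KO responses, and left a cytosolic median of -1.02 in WT. Of the 73 calls, 45 and 46 were kept under these scalings and 13 with the length trend removed. With that trend removed the median was -0.73, and 76 of 79 members lay below other genes of their length. Over the members, rho with length was 0.0044 as deposited and -0.70 with the trend removed, so the removal brought in a link with length. This comparison shares the WT 0 h library with KO against WT at 0 h, so the 2 are not independent.

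Single members show the size of the WT change. Rpsa, a small-subunit protein also known as the laminin receptor, had 935, 255 and 319.66 FPKM in WT at 0, 12 and 24 h. Rpl14 had 399, 113 and 174 FPKM. Both were highest at 0 h and lowest at 12 h, and the 12 h differences were -1.87 and -1.82. The members that stayed nearest to their 0 h level at 12 h were Rpl24, with 526, 435 and 449 FPKM, and the weakly expressed Rpl39l and Rps4l. Rpl24, which bridges the subunits, differed by -0.27. Its promoter window, printed above, has no C or T run at the annotated start. The windows of Rpl4, Rpl13a, Rpl37 and Rps19 have none either, and these members were called lower at 12 h. A link between such a run and the change was not tested.

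In WT at 24 h the cytosolic set was still low. The median against 0 h was -1.05, with 78 of 79 members below 0 and 47 called lower, against 13.9% of all measured genes. Of the 47, 6 were still called under either rescaling, where the median was -0.74, and 12 with the length trend removed, where it was -0.77. Rpl10a and Rpl3 were lowest, at -1.68 and -1.56, with 214 and 267 FPKM at 24 h. Between 12 and 24 h the WT median was 0.28, with 76 of 79 members above 0 and none called, against 1.82% of all measured genes called higher. With the length trend removed this last median was -0.056.

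The KO response at 12 h had the same direction and a smaller median. At 12 h against 0 h the median was -0.70, with 78 of 79 members below 0 and 4 called lower, against 17.5% of all measured genes. The 4 were Rpsa, Rpl14, Rpl3 and Rpl10a, at -1.19, -1.15, -1.10 and -1.02. Under either rescaling none of the 4 was past 2-fold, and with the length trend removed Rpsa alone was. Rpsa had 532, 233 and 376 FPKM in KO at 0, 12 and 24 h, and Rpl14 had 222, 99.6 and 186 FPKM. Rpl24 again stood apart, with 311, 390.25 and 527 FPKM, and was above its 0 h level at both later times. The KO responses start from the lower 0 h level given above, and the 12 h levels of the genotypes were close. Other short genes also changed less in KO. From 513 to 1024 nt the cytosolic median at 12 h against 0 h was -0.675 in KO and -1.32 in WT. Other genes of that length that averaged 10 FPKM or more had -0.41 in KO and -0.79 in WT.

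In KO at 24 h the members spread over both signs. Against 0 h the median was -0.29 as deposited, with 13 members above 0 and 66 below. It was 0.19 or 0.20 under median-of-ratios and trimmed-mean scaling, and -0.70 with the length trend removed. Of 79 members 72 lay below other genes of their length bin. Rpl3 and Rpl10a were called lower, at -1.41 and -1.32, against 21.6% of all measured genes. Neither was past 2-fold under median-of-ratios scaling, at -0.93 and -0.84, or trimmed-mean scaling, and with the length trend removed they were at -1.71 and -1.79. Over both sets 4 members were called as deposited. With that trend removed 3 of them were kept and 18 others were added. Rpl3 had 501, 233 and 188 FPKM in KO at 0, 12 and 24 h, and Rpl10a had 390.38, 191 and 155 FPKM, so that each was lowest at 24 h. Between 12 and 24 h the KO median was 0.42 as deposited and -0.22 with the length trend removed. Rpl41 had its own highest KO value at 24 h, 0.54 above 0 h. It was the only cytosolic member called higher between 12 and 24 h, at 1.11, against 4.78% of all measured genes. With the length trend removed that value was 0.26. Rpl13a, which in human monocytes can leave the ribosome to silence inflammatory mRNAs, had 799, 428 and 807 FPKM in KO at 0, 12 and 24 h. In WT it had 1318, 473 and 694 FPKM.

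**Figure D5:**
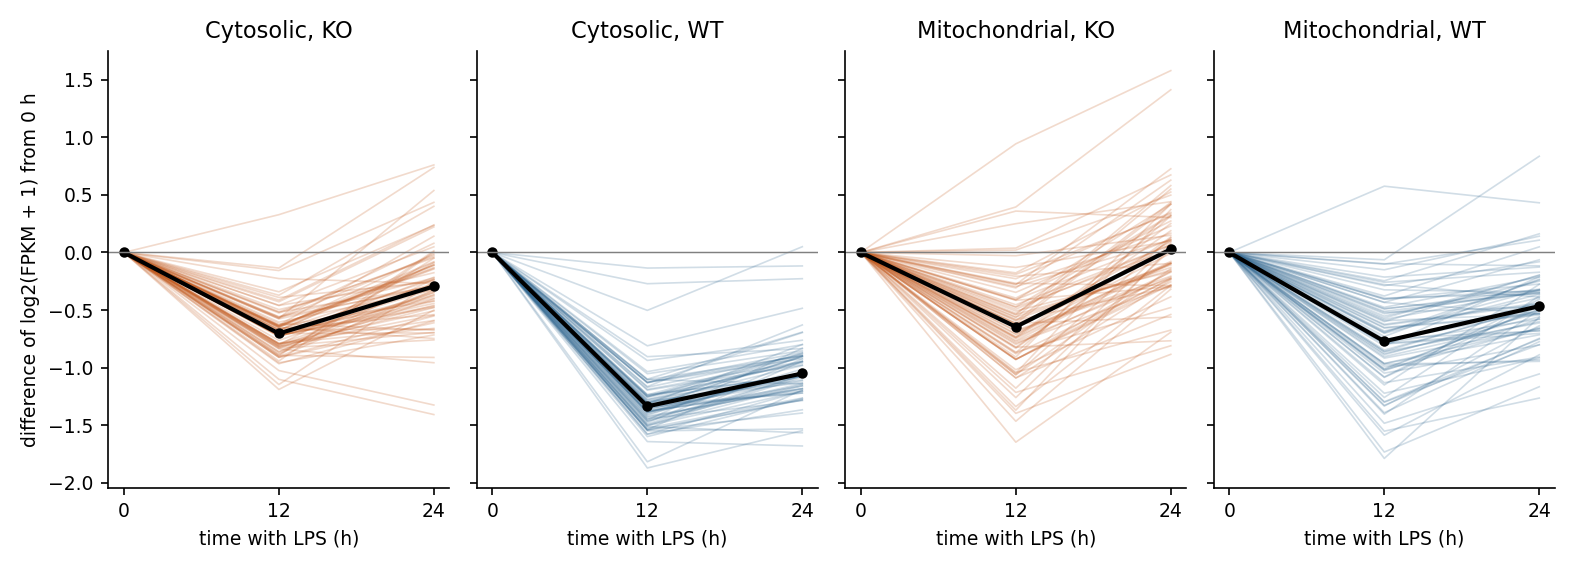
Change of log2(FPKM + 1) from the 0 h library of the same genotype, at 12 and 24 h with LPS, for each cytosolic and mitochondrial member (thin lines) and the set median (black). Cytosolic medians were -0.70 and -0.29 in KO and -1.34 and -1.05 in WT, mitochondrial medians -0.65 and 0.027 in KO and -0.77 and -0.47 in WT; the KO medians at 24 h change sign under some settings.

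The mitochondrial set changed from 0 h in the same order of times, with more spread. At 12 h the median was -0.65 in KO, with 15 of 77 members called lower, and -0.77 in WT, with 22 called lower. The shares of all measured genes called lower were 17.5% in KO and 17.4% in WT. Under either rescaling 3 of these calls were kept in KO and 9 in WT, and with the length trend removed 10 in each. Mrps26 had 39.0, 11.8 and 23.8 FPKM in KO at 0, 12 and 24 h, and 44.6, 14.6 and 18 FPKM in WT. Mrpl42 had 49.0, 17.1 and 39.1 FPKM in KO, and 66.9, 18.7 and 45.0 FPKM in WT. Both were lowest at 12 h in each genotype. Mrpl12, a stalk protein that in human cells also binds the mitochondrial RNA polymerase, had 65.1, 24.6 and 67.5 FPKM in KO, and 82.1, 32.1 and 48.6 FPKM in WT.

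At 24 h the mitochondrial median of KO stood near its 0 h value and that of WT below it. The median against 0 h was 0.027 in KO, with 40 members above 0 and 37 below, and -0.47 in WT, with 6 above and 71 below. In KO 2 members were called higher, against 7.55% of all measured genes, and none lower. In WT 3 were called lower (Mrps26, Mrpl23 and Mrps28), against 13.9%, and none of the 3 under either rescaling. The KO median was -0.18 with the length trend removed and -0.29 with each library scaled to the same FPKM total. Median-of-ratios and trimmed-mean scaling moved this KO comparison up instead, by 0.45 and 0.46 for the median of genes that average 5 FPKM or more. Between 12 and 24 h the median was 0.64 in KO, with 15 called higher against 4.78% of all measured genes, 3 of which were kept with the length trend removed, and 0.29 in WT, with Mrpl42 alone called higher against 1.82%. Other short genes had 0.74 in KO and 0.36 in WT over that interval.

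A small number of mitochondrial members ran against the set. Mrpl52 had 45.4, 88.1 and 137 FPKM in KO at 0, 12 and 24 h, and 85.8, 128 and 116 FPKM in WT. It was above its 0 h level at each later time in both genotypes, by 0.94 and 1.58 in KO and by 0.58 and 0.43 in WT. Mrpl45 had 18.5, 24.7 and 50.9 FPKM in KO, and 21.05, 20.1 and 38.3 FPKM in WT, which is 1.41 above 0 h in KO and 0.83 in WT at 24 h. Mrpl52 and Mrpl45 also had the widest range over libraries once the set median of each library was taken away, 1.85 and 1.55.

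The KO response to LPS was less negative than the WT response for 78 of 79 cytosolic members at 12 h and for all 79 at 24 h, which is the same as a KO minus WT difference that is less negative at the later time than at 0 h. At 24 h against 0 h the KO and WT medians were -0.29 and -1.05. With the length trend removed from each library they were -0.70 and -0.77, and the median KO minus WT difference at 24 h was -0.22, close to the -0.24 seen at 0 h. The mitochondrial medians at 24 h against 0 h, corrected the same way, were -0.18 in KO and -0.28 in WT.

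Most genes that build the ribosome were higher, not lower, in KO at 0 h. Of 76 measured ribosome biogenesis genes, 56 were above 0 in KO against WT at 0 h, with a median of 0.23, and 1 was called higher, against 2.96% of all measured genes. That was Heatr1, needed in human cells for the synthesis of ribosomal RNA, with 16.8 FPKM in KO and 6.5 FPKM in WT, a difference of 1.24 on a transcript of 6780 nt. With the length trend removed it was 0.85, under the size of a call, and the median of the list was 0.20. At 12 h 71 of the 76 were below 0, with a median of -0.30, and at 24 h the median was 0.0020. At 12 h against 0 h their median was -1.02 in KO, with 40 called lower, and -0.50 in WT, with 15 called lower, against 17.5% and 17.4% of all measured genes. Dkc1, the enzyme that makes pseudouridine in ribosomal RNA, had 15.5, 2.16 and 3.64 FPKM in KO at 0, 12 and 24 h, and 12.6, 3.07 and 3.25 FPKM in WT. Nop56 had 49.1, 11 and 17.6 FPKM in KO, and 42.9, 17.1 and 16.2 FPKM in WT.

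Translation factors and other TOP mRNAs went both ways between genotypes. The median over 52 such genes was -0.076, -0.11 and -0.088 in KO against WT at 0, 12 and 24 h, and the middle 50% at 0 h lay between -0.38 and 0.22. Among classic TOP mRNAs, Eef1b2, Naca and Tpt1 had differences of -0.73, -0.60 and -0.58 at 0 h. They lie toward the low end of the list, which ran from -0.73 to 0.69, with 22 genes above 0 and 30 below. With the length trend removed the median of the list at 0 h was -0.026. The only call was Eif4ebp2, an inhibitor of translation initiation, at -1.05 at 24 h, with 6.38 FPKM in KO and 14.3 FPKM in WT. At that time 4.15% of all measured genes were called. Eef1a1, the elongation factor that brings tRNA and a classic TOP mRNA, had 4178, 2735 and 1676 FPKM in KO at 0, 12 and 24 h, and 5156, 2775 and 2463 FPKM in WT. It was highest at 0 h and lowest at 24 h in both. The differences between genotypes were -0.30, -0.021 and -0.55.

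Factors of mitochondrial translation and of mitochondrial ribosome assembly lay near 0 between genotypes. Medians were -0.031, -0.11 and -0.091 over 36 translation factors, and -0.083, -0.16 and -0.069 over 30 assembly genes, in KO against WT at 0, 12 and 24 h. None was called, against 4.23%, 2.04% and 4.15% of all measured genes, shares that amount to few calls in lists of this size. Tfam, which packs and transcribes mitochondrial DNA, had 5.32, 3.44 and 3.35 FPKM in KO, and 7.47, 4.40 and 4.32 FPKM in WT.

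Of 12 ribosomal protein genes and paralogs with names outside the symbol rule, 9 were below 0 in KO against WT at 0 h, with a median of -0.48 as deposited and -0.056 with the length trend removed. Fau, which encodes a small-subunit protein fused to a ubiquitin-like one, had 877, 657 and 1304 FPKM in KO at 0, 12 and 24 h, and 1545, 712 and 1004 FPKM in WT. Rack1, a signalling scaffold on the small subunit, had 579, 334 and 370.07 FPKM in KO, and 863, 361 and 405 FPKM in WT. Their 0 h differences were -0.82 and -0.57, and -0.19 and -0.32 with the length trend removed. Rpl22l1, the paralog of Rpl22, was lower in KO at each time, with 51.4, 27.85 and 23.6 FPKM in KO against 113, 49.4 and 51.0 FPKM in WT, and differences of -1.12, -0.81 and -1.08. With the length trend removed these were -0.46, -0.68 and -1.29, so that the difference at 0 h was no longer past 2-fold. Rpl22 itself had 73.2, 39.4 and 56.5 FPKM in KO, against 134, 46.8 and 63.0 FPKM in WT, and differences of -0.87, -0.24 and -0.15. Among other paralogs, Rps27l had differences of -0.60, -0.090 and 0.23, where Rps27 had -1.06, -0.36 and -0.38. Rps4l and Rps4x lay further apart at 0 h, with KO to WT ratios of FPKM of 1.27 and 0.56.

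Among 27 measured regulators of ribosome production the median was 0.10, -0.15 and -0.18 in KO against WT at 0, 12 and 24 h. Myc, a transcription factor that drives ribosome production, had 17.9, 1.36 and 3.39 FPKM in KO, and 5.41, 2.37 and 0.82 FPKM in WT, with differences of 1.56, -0.51 and 1.27. Sesn1, a sensor that restrains mTOR, had 25.2, 2.59 and 3.39 FPKM in KO, and 51.1, 4.88 and 8.14 FPKM in WT, with differences of -0.99, -0.71 and -1.06. Myc was higher in KO at 0 and 24 h and lower at 12 h, and Sesn1 was lower in KO at each time. Mtor had 9.19, 7.70 and 3.64 FPKM in KO, and 5.78, 7.87 and 5.89 FPKM in WT, on a transcript of 8564 nt.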

How the data were processed

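The authors deposited 1 table that gives FPKM for each gene in the 6 libraries, per the file headers. The submitters' processing notes name Bowtie2, RSEM and the build GRCm38. Versions, counts and read length are not given in the sources used here. Per the labels' protocols, RNA was taken up in TRIzol and read on a BGISEQ-500 machine. A row without a gene name was dropped (1 of the table), and 2 cells that are not numbers were read as missing. The labels do not tie libraries to animals or cultures.

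Pairs of libraries were compared gene by gene on the log2(FPKM + 1) scale, which understates the change of low genes, and a difference of 1 or more in size (2-fold) was a call. No test was run, as each group holds 1 library with no replicate, and no p-value is given. GENCODE M21 gave gene spans, small nucleolar RNA genes and transcript lengths, the last for 99.2% of measured genes. Promoter windows came from RefSeq (GRCm38.p6), with 1 window per gene for 58 of 79 cytosolic and 68 of 77 mitochondrial members. The length trend was a lowess curve (span 0.3) over genes that averaged 10 FPKM or more. Counting errors assume reads of 50 nt and cover counting only. The transcript length used is an annotated one, so a level per length depends on it.

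Alternatives were pseudocounts of 0.1 and 5, no minimum or a minimum of 5 FPKM, calls at 1.5-fold and 3-fold, scaling of the columns by median of ratios or by trimmed mean, and 3 corrections for length or for length and GC content. A trend fitted without the members, bin medians over other genes of 10 FPKM or more, and scaling of each library to the same FPKM total, were added after seeing the data. The members and the gene lists were chosen with earlier results of these data known. Genes were named by rank of difference in each comparison, by level, by a steady distance from the set median, by range over libraries, or because they were called. The report also names Rplp0, Rps6, Rps4x, Rpl13a and the members with long transcripts or small nucleolar RNA genes, and genes of the other lists, some of them chosen after their values were seen. Python 3.11.15 was used with numpy 2.4.6, pandas 2.3.3, scipy 1.17.1, statsmodels 0.14.6 and matplotlib 3.10.9.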

Additional observations from a re-analysis of the deposited data

Results flagged for a closer look

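The mitochondrial medians at 24 h with LPS against 0 h had opposite signs in the genotypes as deposited. Its median change was 0.0274 in KO, with 40 of 77 members above 0, and -0.466 in WT, with 6 of 77 above 0. Each side is 1 library against 1, and the difference between the genotypes was not tested. The KO value is close to 0, and it was -0.18 with the length trend removed, -0.19 with trends over length and GC content removed, -0.21 with the trend fitted without the members, -0.030 with the bin median of other genes of 10 FPKM or more subtracted, and -0.29 with each library scaled to the same FPKM total. The WT value was below 0 under each of the same settings. Median-of-ratios and trimmed-mean scaling moved the KO comparison the other way. They raised the median of genes that average 5 FPKM or more by 0.45 and 0.46.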

How the results depend on the processing

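Of 216 set medians under alternative settings, 186 kept their sign and their side of a 2-fold size, 12 kept the sign only and 18 changed sign, with causes not tested. This tally is a loose one. The pseudocount settings cannot turn the sign of any gene's difference, and the minimum settings leave nearly the same members. The cytosolic median in KO against WT at 0 h counts as kept though it went from -0.78 to -0.24 with the length trend removed. The median-of-ratios and trimmed-mean scalings turned the cytosolic median at 24 h to 0.092 and 0.096 in KO against WT, and to 0.19 and 0.20 in KO against 0 h. Removing the trend over length, the trends over length and GC content, or the trend fitted without the members turned the cytosolic 24 h against 12 h median to -0.056, -0.057 and -0.084 in WT and to -0.22, -0.22 and -0.29 in KO. The length bins gave -0.0010 for KO, and bins over other genes of 10 FPKM or more (expressed-gene bins) gave -0.036 in WT and -0.21 in KO. The same 3 trends turned the mitochondrial KO median at 24 h against 0 h to -0.18, -0.19 and -0.21, and scaling to an equal FPKM total turned it to -0.29 and expressed-gene bins to -0.030. That scaling moved the median of genes that average 5 FPKM or more by -0.32 to 0.20 over the comparisons, and the other scalings moved it by 0.14 in KO against WT at 24 h. The cytosolic WT median at 12 h against 0 h was under 2-fold with the length trend removed (-0.73), with length bins (-0.72), with length and GC content (-0.74) with the trend fitted without the members (-0.77) and with expressed-gene bins (-0.60). The one at 24 h was -0.74 under both scalings, and -0.77, -0.72, -0.78, -0.84 and -0.70 under those same 5 corrections.

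Counts of members called moved with nearly every choice. In KO against WT at 0 h, 5 members were called, 6 under either scaling (the 5 and 1 more), 4 with length bins (3 of the 5, all in a bin whose median was 0), 3 under each of the 3 smooth trends or with expressed-gene bins (all outside the 5), 0 after scaling to an equal total, 88 at 1.5-fold and 0 at 3-fold. At 12 h the count of 0 became 1 with a pseudocount of 0.1 and 3 at 1.5-fold. At 24 h it became 1 with a pseudocount of 0.1 or either scaling and 3 at 1.5-fold. In WT at 12 h against 0 h, 95 became 54 and 55 under the scalings, 26, 28 and 27 under the trends over length, over length and GC content and without the members, 21 with length bins, 15 with expressed-gene bins and 7 at 3-fold. In WT at 24 h, 50 became 7 under either scaling, 14, 14 and 19 under the trends, 8 with length bins, 7 with expressed-gene bins, 99 at 1.5-fold and 1 at 3-fold. In KO at 12 h, 19 became 10 with a pseudocount of 5, 4 under either scaling or with length bins, 5 with expressed-gene bins, 12 under the first 2 trends, 103 at 1.5-fold and 1 at 3-fold. In KO at 24 h, 4 became 10 under either scaling, 21, 21 and 24 under the trends, 12 with expressed-gene bins, 17 after scaling to an equal total, 27 at 1.5-fold and 0 at 3-fold. Between 12 and 24 h in WT, 1 became 2 with a pseudocount of 0.1, 14 at 1.5-fold and 0 at 3-fold. Between 12 and 24 h in KO, 16 became 9 with a pseudocount of 5, 9, 10 and 6 under the trends, 2 after scaling to an equal total, 60 at 1.5-fold and 0 at 3-fold. Other settings kept all 16 and added calls: 7 under median-of-ratios scaling, 8 under trimmed-mean scaling and 5 with a pseudocount of 0.1.

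With the 10 genes of highest mean over all libraries out of the total, cytosolic shares were 9.96%, 6.35% and 7.65% in KO at 0, 12 and 24 h and 14.7%, 6.89% and 8.00% in WT. Mitochondrial shares were 0.4997%, 0.346% and 0.522% in KO and 0.583%, 0.396% and 0.475% in WT. No paired analysis was possible because each group holds 1 library and every title carries the number 1, so that no 2 groups share more than 1 replicate number. A fit of genotype and time over the 6 libraries, whose error would be the change of the genotype difference between times, was not run. For the same reason no library could be left out. Depth limits Rpl39l and Rps4l most, with counting errors at 0 h of 0.52 and 0.16.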
